A study of Mus musculus with 27 samples.

Results

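The 8 genes described here encode the muscleblind-like proteins (Mbnl1, Mbnl2, Mbnl3) and the CUGBP Elav-like proteins (Celf1, Celf2, Celf4, Celf5, Celf6), RNA-binding proteins that act on many of the same exons. They were taken by gene symbol from a table of 55487 genes measured in mouse heart ventricle, and all 8 were present in it. The table held counts of RNA-sequencing reads for 27 libraries in 7 groups. There were 4 control libraries at postnatal day 1, 3 at day 7, and 7 at day 60, of which 4 were labelled 7 days and 3 were labelled 14 days after knockout. The other groups were 4 libraries at day 7 with gain of MBNL1 function (labelled Tg) and 9 at day 60 with loss of MBNL1 function (labelled KO), 5 taken 7 days and 4 taken 14 days after the knockout. The study set out to describe normal postnatal gene expression in the ventricle and how the dose of MBNL1 alters it.

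MBNL proteins bind YGCY motifs and CELF proteins bind UG-rich stretches in pre-mRNA and mRNA, and the families often push the same exon in opposite directions. In the developing heart CELF protein is known to decline after birth while MBNL moves into its adult role, a handover that switches fetal splice forms to adult ones. The same antagonism is disturbed in myotonic dystrophy, where expanded CUG repeats sequester MBNL proteins and CELF1 is stabilised by phosphorylation. Counts per gene measure transcript level, and neither protein, phosphorylation nor exon inclusion was measured here.

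The sources used here do not give how the knockout was induced, which part of Mbnl1 was deleted, which promoter drove the transgene or the animals' sex. Nor do the labels tie the libraries of a group to separate animals, and the p-values therefore reflect the spread among these libraries, part of which may be technical. Total counts ran from 21929347 to 25675115 per library. Levels are given as CPM, counts scaled to a common library size, after TMM scaling, which corrects library size for composition. A count of 0 allows up to 3 counts, which equalled 0.0956 to 0.187 CPM, a limit for counting error only. The mitochondrially encoded genes took 26.0% to 29.6% of counts in the day 60 controls, 14.7% to 21.6% in the libraries labelled KO and 10.3% to 16.9% at days 1 and 7, so that the choice of scaling bears on every small difference involving day 60. Esr1, the estrogen receptor gene, was at 193 to 1983 CPM in the libraries labelled KO and at 0.482 to 1.49 CPM in the day 60 controls. Of the KO libraries at 7 days, numbers 1 and 5 had the least Esr1, at 234 and 193 CPM. Number 3 was also low at 651 CPM, and numbers 2 and 4 were at 1905 and 1671 CPM. The 14-day KO libraries were at 1672 to 1983 CPM.

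In GRCm38 coordinates and GENCODE M21 gene models, Mbnl1 (ENSMUSG00000027763) lies on the plus strand of chromosome 3 from 60472830 to 60629750. Mbnl2 (ENSMUSG00000022139) lies on the plus strand of chromosome 14 from 120275669 to 120431697. Mbnl3 (ENSMUSG00000036109) lies on the minus strand of chromosome X from 51117269 to 51206532. Both leading CELF genes are on chromosome 2, Celf1 (ENSMUSG00000005506) on the plus strand from 90940382 to 91019497 and Celf2 (ENSMUSG00000002107) on the minus strand from 6539694 to 7509563. Celf4 (ENSMUSG00000024268) lies on the minus strand of chromosome 18 from 25477632 to 25754157. Celf5 (ENSMUSG00000034818) lies on the minus strand of chromosome 10 from 81459227 to 81482709. Celf6 (ENSMUSG00000032297) lies on the plus strand of chromosome 9 from 59577917 to 59607292. Exons of 3 members overlap a noncoding gene on the other strand: Mbnl2 with Gm26679 over 86 bases, Celf2 with Gm26565 over 1961 bases and Celf5 with Gm16105 over 543 bases. No strand setting is stated for the counting, so reads in those stretches cannot be told apart.

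On the TMM scale Celf1 transcript fell with age in these libraries while Mbnl1, Mbnl2 and Celf2 transcript rose. The later rises of Mbnl1 and Celf2 depended on the scaling, as given below. With those courses in view, the stretches of the members' transcripts that match the seed of miR-23 are shown first. MiR-23a and miR-23b are microRNAs known as repressors of CELF1 and CELF2 in the postnatal heart. The mature mmu-miR-23a-3p sequence is from RefSeq (GRCm38.p6), with its seed, bases 2 to 8, in capitals. The other lines give 30 bases of 3′ UTR, read 5′ to 3′ on the transcript strand from GENCODE M21 on GRCm38, with the complement of that seed, AATGTGA, in capitals.

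mmu-miR-23a-3p: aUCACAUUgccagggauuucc

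Celf1, chr2:91015371-91015400, plus strand: agaatccagAATGTGAttgttgtacacaca

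Celf1, chr2:91017347-91017376, plus strand: ccacagcaaAATGTGAtgctttcaactttt

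Celf1, chr2:91018174-91018203, plus strand: acttggaagAATGTGAatagaggaggagag

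Celf1, chr2:91018993-91019022, plus strand: tgatttcacAATGTGAagagaaaaaaattg

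Celf2, chr2:6546726-6546755, minus strand: catcttgagAATGTGAaaggcaagcaaaca

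Mbnl1, chr3:60629446-60629475, plus strand: aaagagcaaAATGTGAcaatggccacttgt

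Mbnl3, chrX:51120335-51120364, minus strand: tgactgaaaAATGTGAcaggttcatggtaa

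Celf1 held 4 matches in a 3′ UTR of 6132 bases, Celf2 held 1 in 846 bases, Mbnl1 held 1 in 3389 bases and Mbnl3 held 1 in 927 bases. Mbnl2, Celf4, Celf5 and Celf6 held 0. In the same search on the transcript strand, using 1 transcript per gene, 14.0% of 20710 genes had at least 1 match, with a median 3′ UTR of 848.5 bases. A long 3′ UTR has more room for a match: of the 223 genes whose 3′ UTR was within 10% of the length of that of Celf1, 107 (48.0%) had at least 1, and 1 gene, Celf1 itself, had 4 or more. A match is a description of letters, not a site in use, and microRNAs were not measured in these libraries.

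In the control ventricle the abundant members went opposite ways with age. On the TMM scale Mbnl1 and Mbnl2 transcript rose, Celf1 fell, and Celf2, its close relative, rose. The low members Mbnl3, Celf4 and Celf5 fell between day 7 and day 60.

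Mbnl1, the leading MBNL protein of adult muscle and heart, was at 74.4, 62.4, 81.8 and 70.7 CPM in the 4 day 1 libraries and at 104, 96.9 and 97.1 CPM in the 3 day 7 libraries. In the day 60 controls it was at 152, 145, 149 and 147 CPM in the group labelled 7 days and at 169, 158 and 152 CPM in that labelled 14 days. The 3 ages did not overlap. The rise from day 1 to day 7 was 0.45 ± 0.08 (log2 fold change ± SE; adjusted p = 0.00118, edgeR quasi-likelihood test with Benjamini-Hochberg adjustment), and that from day 7 to day 60 was 0.62 ± 0.08 (adjusted p = 4.26e-06, same edgeR test). With libraries scaled by total counts the second step was 0.02 and was not called, the median of all genes standing at -0.65 on that scale.

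Mbnl2, a paralog that can stand in for MBNL1 on many exons, was level over the first week and rose later. It was at 139, 140, 142 and 129 CPM at day 1 and at 152, 150 and 143 CPM at day 7, a difference of 0.11 (log2) that did not pass the edgeR test (adjusted p = 0.459, Benjamini-Hochberg). The 7 day 60 controls ran from 234 to 327 CPM. That was a rise of 0.95 ± 0.09 (log2 ± SE; adjusted p = 3.03e-07, edgeR), 1.93-fold, and it was called under every scaling tried, at 0.34 with total counts.

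Celf1, a regulator of splicing, translation and mRNA decay, was at 188, 186, 165 and 164 CPM at day 1 and at 151, 149 and 147 CPM at day 7. It stood between 97.7 and 112 CPM in the 7 day 60 controls. No day 1 library overlapped a day 7 library, and no day 7 library overlapped day 60. The fall from day 7 to day 60 was -0.54 ± 0.06 (log2 ± SE; adjusted p = 2.25e-06, edgeR with Benjamini-Hochberg adjustment). That from day 1 to day 7 was -0.24 ± 0.07 (adjusted p = 0.0238, edgeR), and it was no longer called without day 1 library 1 or 2 or without any single day 7 library, where the log2 change was -0.21 to -0.25 and the adjusted p 0.0697 to 0.0938.

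Celf2, which shares most of its RNA-binding domains with Celf1, did not follow it. It was at 61.3, 60.9, 55.3 and 53.9 CPM at day 1, at 64.5, 61.8 and 60.1 CPM at day 7 and at 75.3 to 85.0 CPM in the 7 day 60 controls. The step from day 7 to day 60 was a rise of 0.39 ± 0.06 (log2 ± SE; adjusted p = 3.86e-05, edgeR). This direction depended on the scaling: it was 0.02 and not called with total counts that leave out the mitochondrial genes and -0.22 with total counts. The ratio of Celf2 to Celf1 counts within a library does not depend on scaling, and it was 0.330 ± 0.00423 (mean ± SD, n = 4) at day 1, 0.417 ± 0.00954 (n = 3) at day 7 and 0.794 ± 0.0626 (n = 4) in the day 60 controls labelled 7 days. No library of one age overlapped another in that ratio.

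**Figure D1:**
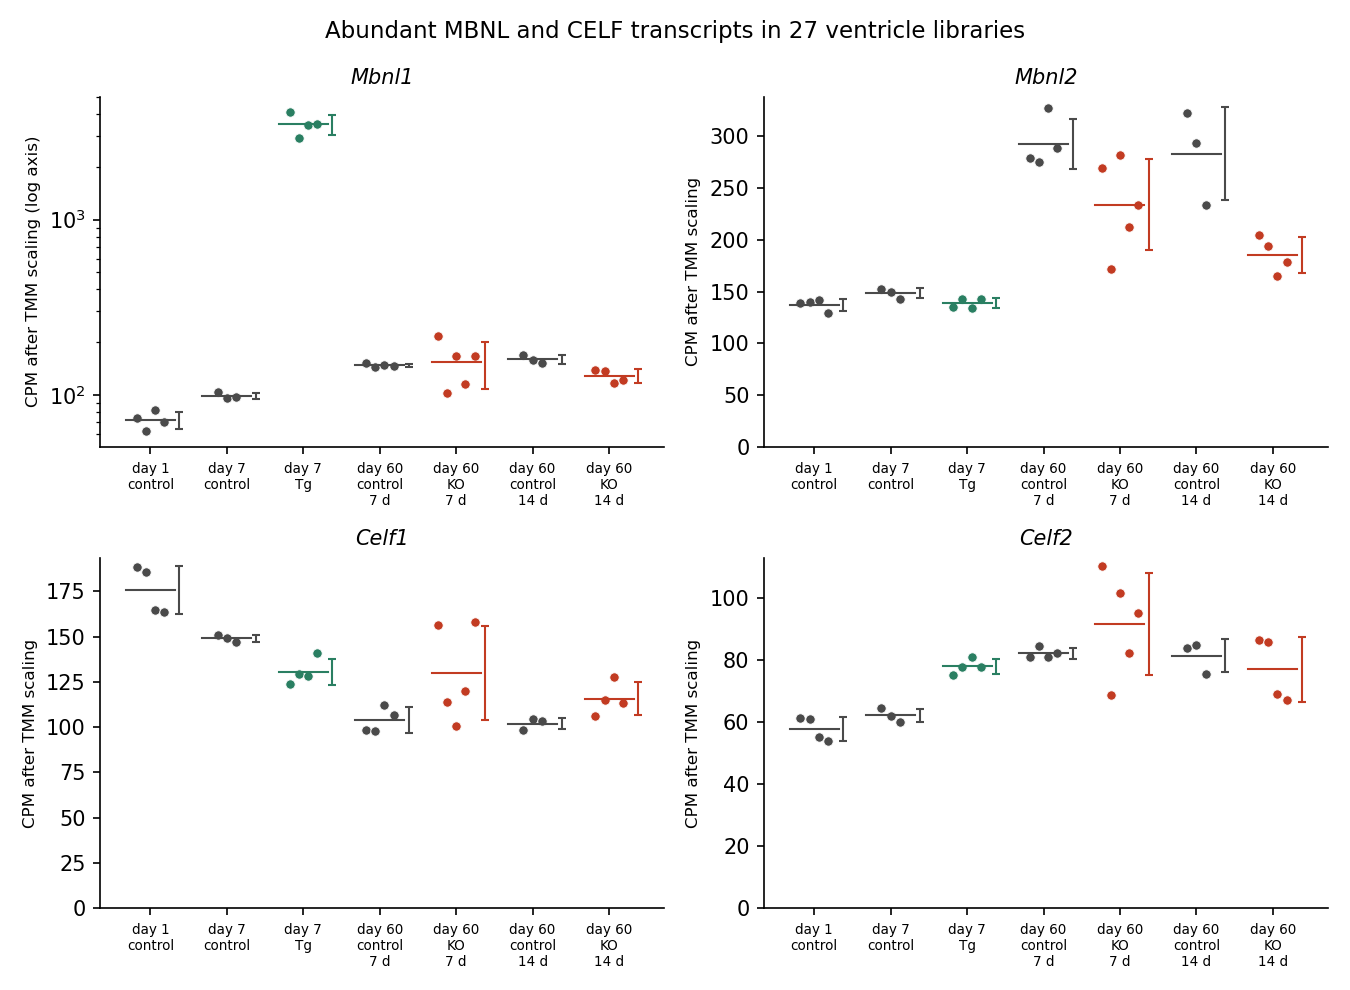
Levels of Mbnl1 (log axis), Mbnl2, Celf1 and Celf2 in CPM after TMM scaling, with a point per library, a bar for the group mean and an error bar of 1 SD beside it, in controls (grey), Tg (green) and KO (red). Mbnl1 stands at 2927 to 4079 CPM in the Tg libraries, and Celf1 of the day 60 controls lies at 97.7 to 112 CPM, below every day 1 and day 7 library.

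The low members lost transcript with age. Mbnl3, the family member linked to proliferating and undifferentiated cells, was at 1.40 to 3.66 CPM at day 1, at 1.41 to 2.62 CPM at day 7 and at 0.119 to 0.482 CPM in the day 60 controls, where its raw counts were 2 to 8 per library. The fall from day 7 to day 60 was -3.02 ± 0.38 (log2 ± SE; adjusted p = 5.56e-06, edgeR). Celf4, a member known chiefly from neurons, was at 1.54 to 2.50 CPM at day 1, 1.08 to 1.57 CPM at day 7 and 0.327 to 1.33 CPM in day 60 controls, so that its ages overlapped between days 7 and 60, with a fall of -1.22 ± 0.30 (adjusted p = 0.00192, edgeR). Celf5, also a largely neuronal member, had 11 to 15 counts at day 1, 12 to 21 at day 7 and 1 to 4 in the day 60 controls, a fall of -2.45 ± 0.33 (adjusted p = 8.89e-06, edgeR). Celf6 had 0 to 3 counts in every one of the 27 libraries and entered no test.

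Of the 7 members tested between day 1 and day 7, 1 rose (Mbnl1) and 1 fell (Celf1), beside 23.5% of all 16388 genes tested that were called in either direction. Over that week 8 of 10 fibroblast, 6 of 10 endothelial and 6 of 8 smooth muscle and pericyte markers rose. Day 1 libraries 3 and 4 had less of the mitosis genes, at 248 and 312 CPM summed, than libraries 1 and 2, at 695 and 735 CPM. Without libraries 3 and 4 Mbnl1 (0.53) and Celf1 (-0.34) were still the members called, and calls over all genes went from 3844 to 5725. Between day 7 and day 60 all 7 were called, 3 higher and 4 lower, beside 69.3% of all genes (33.3% higher and 36.0% lower), so that a call by itself sets no member apart there. The share of calls over all genes that were higher depended on the scaling: from day 7 to day 60 it was 48.1% with TMM, 26.7% with total counts without mitochondrial genes and 18.0% with total counts, and from day 1 to day 7 it was 52.4% with TMM and 41.0% with total counts. Several marker genes moved from day 7 to day 60: all 10 cardiomyocyte markers and all 10 macrophage markers rose, and 8 of 10 fibroblast markers fell. All 10 mitosis genes fell over that step, with a median log2 change of -4.12. The summed level of the mitosis genes was 367 to 393 CPM at day 7 and 15.2 to 39.2 CPM in the day 60 controls. In whole tissue, fewer cells of a type and less RNA per cell cannot be told apart, and the part of cell makeup in the members' changes was not tested.

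Levels of different genes were compared only per length, as CPM per kilobase of merged exons. On that scale the order at day 1 was Celf1 at 20.8 ± 1.57, Mbnl2 at 11.4 ± 0.473, Mbnl1 at 3.86 ± 0.431 and Celf2 at 2.24 ± 0.147 (mean ± SD, n = 4). In the day 60 controls labelled 7 days Mbnl2 led at 24.4 ± 2.01, ahead of Celf1 at 12.3 ± 0.840, Mbnl1 at 7.91 ± 0.150 and Celf2 at 3.17 ± 0.0635 (n = 4). On this scale Celf1 led at day 1 and Mbnl2 at day 60, and no neighbours among these 4 overlapped within 1 SD. The order rests on the length used, and the merged exons of Celf2 span 25884 bases. Per kilobase of 1 principal transcript Mbnl2 led at day 1 already, at 30.2 ± 1.25, before Celf2 at 24.7 ± 1.63 and Celf1 at 22.5 ± 1.70, which overlapped within 1 SD, and Mbnl1 at 12.8 ± 1.43. Mbnl3, Celf4, Celf5 and Celf6 each had group means of at most 0.263 CPM per kilobase of merged exons in all 7 groups.

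**Figure D2:**
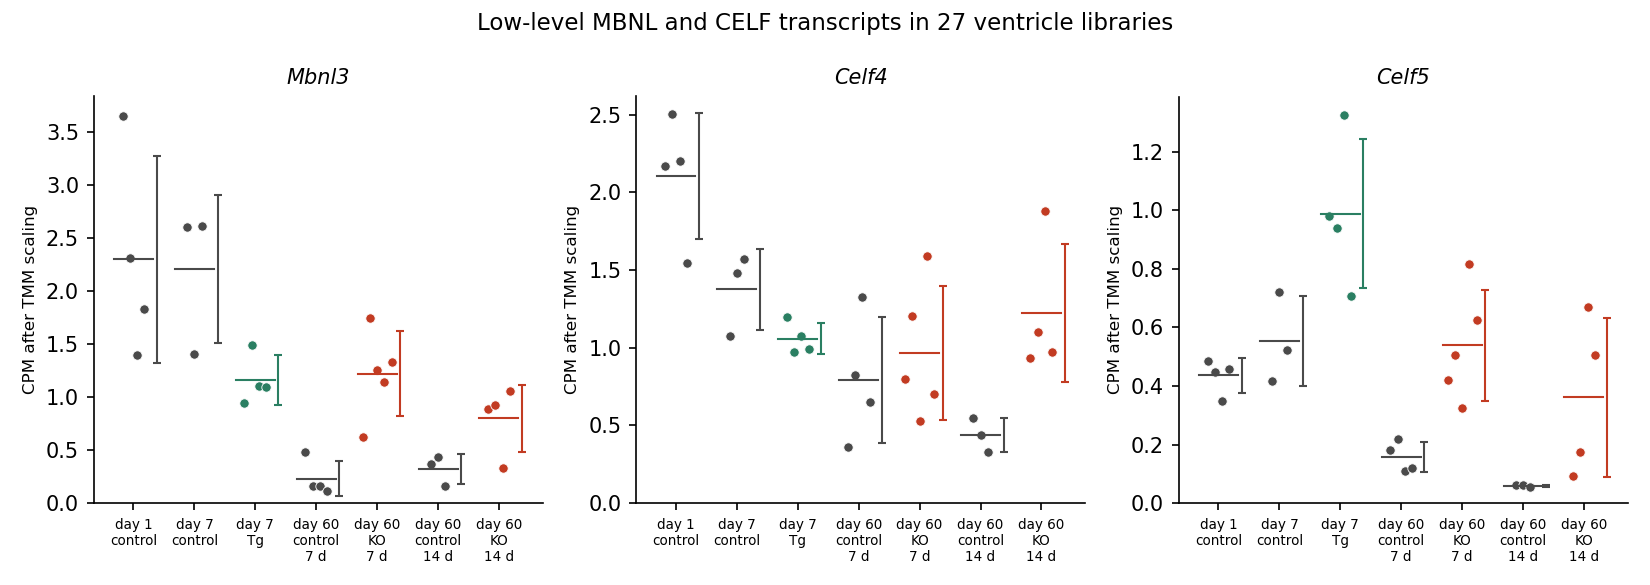
Levels of Mbnl3, Celf4 and Celf5 in CPM after TMM scaling, with a point per library, a bar for the group mean and an error bar of 1 SD. For Mbnl3 the day 60 controls lie at 0.119 to 0.482 CPM and the 7-day KO libraries above them at 0.629 to 1.75 CPM. KO library 8 of 14 days lies among the controls at 0.334 CPM.

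The ratio of MBNL to CELF transcript, the counts of Mbnl1, Mbnl2 and Mbnl3 summed over those of Celf1, Celf2, Celf4, Celf5 and Celf6, was computed within each library and is free of library scaling. It was 0.858, 0.819, 1.01 and 0.919 at day 1, and 1.19, 1.16 and 1.16 at day 7. In the day 60 controls it was 2.39, 2.29, 2.45 and 2.30 in the group labelled 7 days and 2.69, 2.38 and 2.16 in that labelled 14 days. Each age lay above the one before it without overlap. Whether the ratio is above or below 1 rests on gene length: with each count divided by its gene's merged exon length it was 0.617 to 0.744 at day 1, 0.870 to 0.904 at day 7 and 1.82 to 2.40 in the day 60 controls. From day 7 to day 60 the ratio was 2.03 times as high, a log2 difference of 1.02 with a pooled SD of 0.09. No test was made on ratios, which are scores over chosen members, and a ratio of counts also carries the lengths of the genes.

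Single pairs showed where that change sat. Mbnl2 to Celf1 moved furthest over the later interval, from 0.995 ± 0.0198 at day 7 (n = 3) to 2.81 ± 0.0854 at day 60 (controls labelled 7 days, n = 4). Mbnl1 to Celf1 was 0.415 ± 0.0672 at day 1 (n = 4), 0.666 ± 0.0207 at day 7 (n = 3) and 1.43 ± 0.0979 at day 60 (n = 4). Mbnl2 to Celf2 was the same within the spread at days 1 and 7, at 2.26 to 2.56 and 2.36 to 2.42, and reached 3.10 to 4.05 in the 7 day 60 controls.

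**Figure D3:**
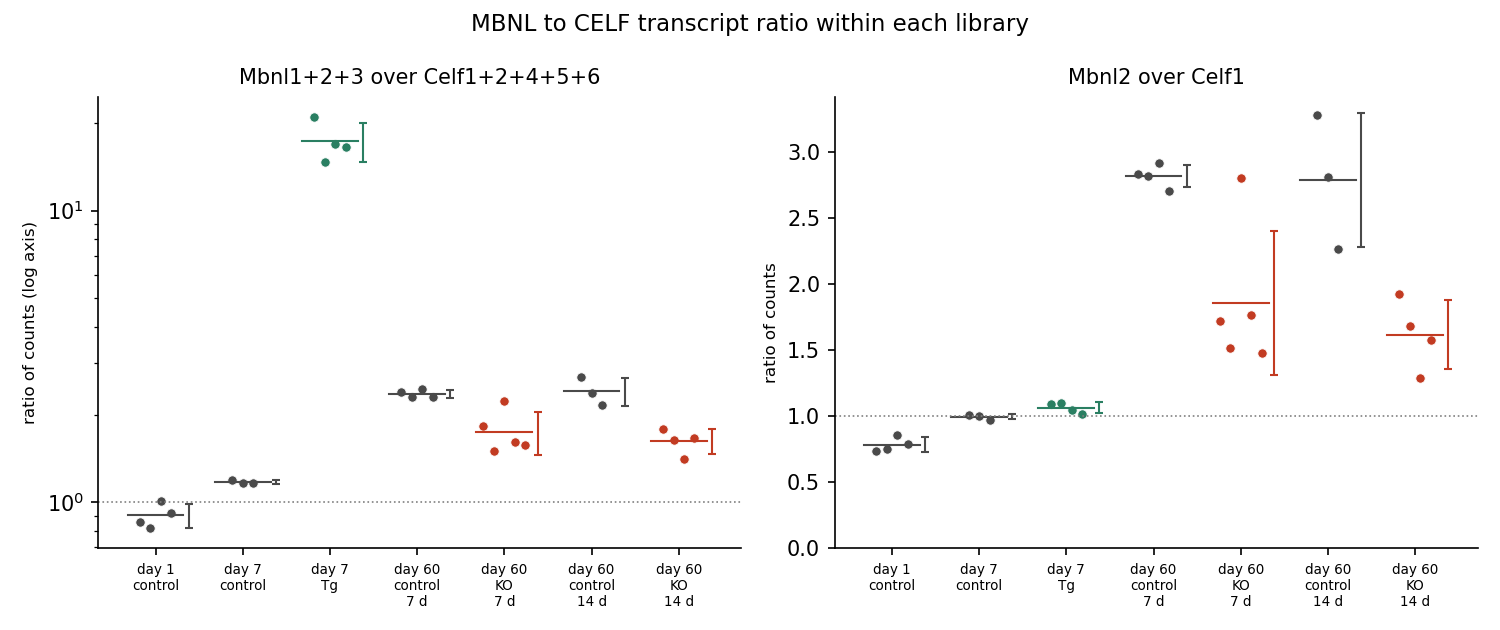
Ratio of summed MBNL to summed CELF counts (left, log axis) and of Mbnl2 to Celf1 counts (right) in each library, with group mean and SD and a dotted line at 1. The summed ratio is 1.41 to 2.22 in the libraries labelled KO and 2.16 to 2.69 in the day 60 controls, and 7-day KO library 3 stands alone at 2.80 on the right.

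The libraries with gain of MBNL1 function at day 7 had more Mbnl1, Celf2 and Celf5 transcript and less Mbnl3 and Celf1 than controls of that age. The calls of Celf5 and Mbnl3 depended on single libraries, as given below. Mbnl1, the overexpressed gene, was at 4079, 2927, 3437 and 3509 CPM in the 4 Tg libraries and at 104, 96.9 and 97.1 CPM in the 3 controls, a change of 5.13 ± 0.10 (log2 ± SE, 35.0-fold; adjusted p = 2.73e-12, edgeR with Benjamini-Hochberg adjustment). Those libraries therefore matched their label. Whether the reads came from the transgene or the native gene cannot be told apart in counts per gene.

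Mbnl2 was at 135, 143, 134 and 143 CPM with the transgene and at 152, 150 and 143 CPM without it. The difference was -0.10 ± 0.05 (log2 ± SE) with a 95% interval from -0.21 to 0.01 and did not pass the edgeR test (adjusted p = 0.151). Mbnl3 was at 0.943, 1.50, 1.11 and 1.10 CPM against 2.61, 1.41 and 2.62 CPM, a fall of -0.93 ± 0.24 (adjusted p = 0.0104, edgeR) although control library 2 lay among the Tg libraries. Without day 7 control library 1 or 3 that fall was -0.79 and no longer called (adjusted p 0.0531 and 0.0529, edgeR).

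The CELF members split. Celf1 was at 124, 130, 128 and 141 CPM in Tg and at 151, 149 and 147 CPM in control libraries, a fall of -0.19 ± 0.05 (log2 ± SE; adjusted p = 0.0147, edgeR) with no overlap. Celf2 was at 75.0, 77.9, 81.0 and 77.7 CPM against 64.5, 61.8 and 60.1 CPM, a rise of 0.32 ± 0.05 (adjusted p = 0.000278, edgeR), also without overlap. The Celf2 to Celf1 ratio was 0.598 ± 0.0333 (mean ± SD, n = 4) in Tg libraries against 0.417 ± 0.00954 (n = 3) in day 7 controls, and the 2 groups did not overlap. Both changes had the sign of the step from day 7 to day 60 in controls on the TMM scale, a step that uses the same day 7 control libraries.

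Celf5 had 27, 27, 37 and 20 counts in Tg libraries and 12, 21 and 15 in controls, a rise of 0.82 ± 0.28 (log2 ± SE; adjusted p = 0.0424, edgeR). That call did not hold under DESeq2 (adjusted p = 0.0856) or limma-voom (adjusted p = 0.0525), and it was lost without day 7 control library 1 or 3 or without Tg library 1, 2 or 3, where the change ran from 0.65 to 0.84. Celf4 was at 0.975 to 1.20 CPM against 1.08 to 1.57 CPM, and its difference of -0.38 ± 0.20 did not pass (adjusted p = 0.172, edgeR). In all, 5 of 7 members tested were called, 3 higher and 2 lower. Of the 3, 1 was Mbnl1, whose call was set by the design. Of all 15893 genes tested, 30.7% were called, 14.9% higher and 15.8% lower. When all 27 libraries shared a single estimate of the spread, Mbnl1 alone was called among the members, and the calls over all genes went from 4878 to 973.

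The summed MBNL to CELF ratio in Tg libraries was 20.95, 14.7, 16.9 and 16.6, against 1.16 to 1.19 in day 7 controls. That rise was Mbnl1 itself: without Mbnl1 in the MBNL sum the log2 difference was -0.09 in place of 3.87. Mbnl2 to Celf2 was 1.65 to 1.83 in Tg libraries and 2.36 to 2.42 in controls, without overlap. Of the marker genes, 7 of 10 fibroblast and 9 of 10 macrophage markers rose and all 10 mitosis genes fell in Tg libraries, and the summed mitosis level was 240 to 275 CPM against 367 to 393 CPM in controls. The part of these cells in the members' changes was not tested.

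**Figure D4:**
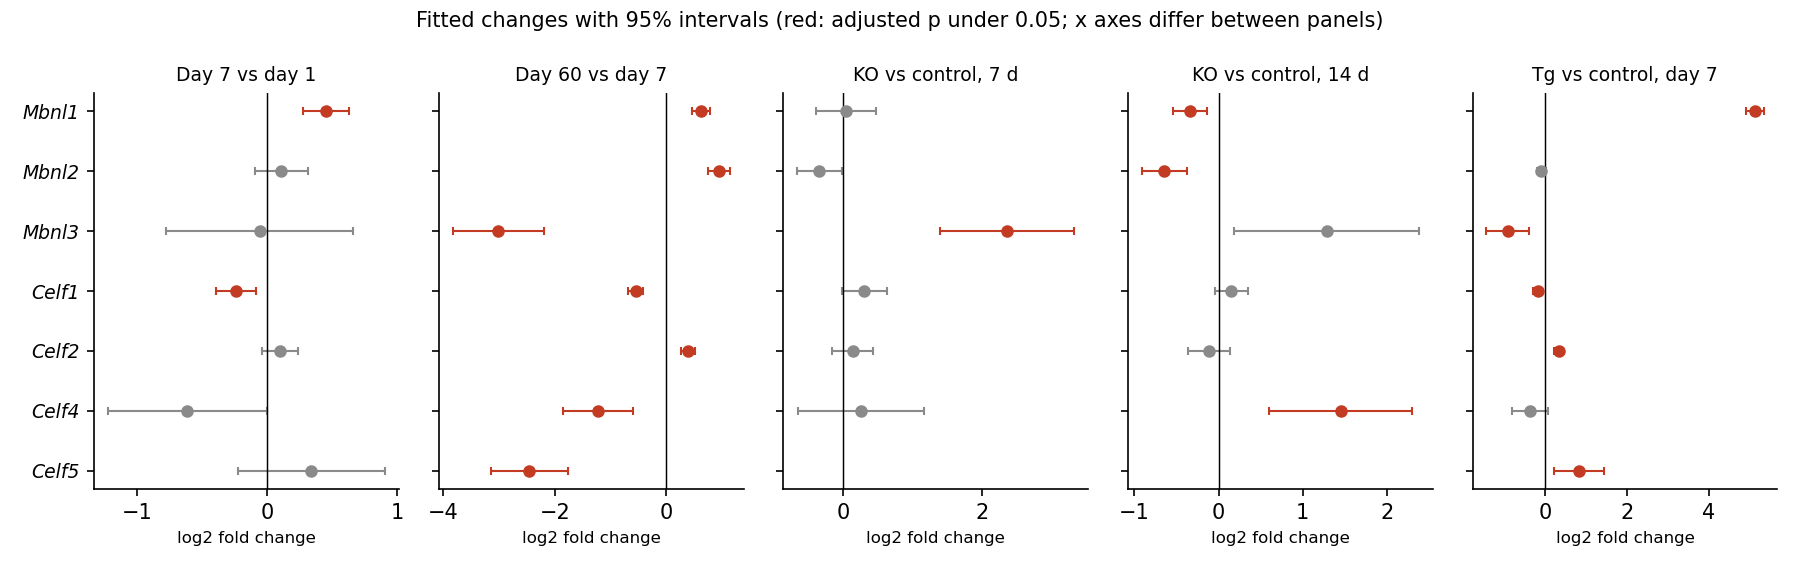
Fitted log2 fold changes of the tested members with 95% intervals in 5 comparisons, on x axes that differ between panels, with red for an adjusted p under 0.05 (edgeR, Benjamini-Hochberg). The Tg panel holds Mbnl1 at 5.13, and the KO panels hold Mbnl2 at -0.34 (7 days) and -0.64 (14 days).

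Loss of MBNL1 function was read first in Mbnl1 itself. In the 5 libraries labelled KO at 7 days it was at 219, 103, 168, 116 and 166 CPM, and in the 4 controls at 152, 145, 149 and 147 CPM. Libraries 1, 3 and 5 thus lay above every control and libraries 2 and 4 below. Libraries 1, 3 and 5 were also the KO libraries with the least Esr1, and the link was not tested. The difference was 0.05 ± 0.20 (log2 ± SE) with a 95% interval from -0.39 to 0.48 (adjusted p = 0.86, edgeR), so the count of Mbnl1 does not mark the KO libraries of this time. Without libraries 1 and 5 it was -0.21 (adjusted p = 0.259, edgeR). A deletion of some exons can leave the count of the whole gene in place, and which part was deleted is not given, so this count does not check the label.

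At 14 days Mbnl1 was at 139, 137, 117 and 123 CPM in the libraries labelled KO and at 169, 158 and 152 CPM in controls. The groups did not overlap, and the difference was -0.34 ± 0.09 (log2 ± SE; adjusted p = 0.012, edgeR). It was called on the TMM scale but not when libraries were scaled by total counts without mitochondrial genes (-0.14, adjusted p = 0.202, edgeR), and it was 0.03 with total counts. Without 14-day control library 5 it was -0.30 and no longer called (adjusted p = 0.0618, edgeR), nor was it called in a single fit of all 27 libraries (-0.33, adjusted p = 0.117, edgeR).

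Mbnl2 fell in the 14-day libraries labelled KO and did not pass the test at 7 days. At 7 days it was at 269, 172, 282, 212 and 234 CPM against 278, 275, 327 and 288 CPM in controls, where library 3 alone reached the controls. The difference was -0.34 ± 0.14 (log2 ± SE; 95% interval -0.66 to -0.02) and did not pass (adjusted p = 0.0729, edgeR). It passed without KO library 3 (-0.41, adjusted p = 0.033) and without KO libraries 1 and 5 (-0.41, adjusted p = 0.0458), and with total counts it was 0.08 (adjusted p = 0.631, edgeR). At 14 days Mbnl2 was at 204, 193, 165 and 179 CPM against 322, 294 and 234 CPM, without overlap, a fall of -0.64 ± 0.12 (adjusted p = 0.00159, edgeR). That fall was called under each scaling tried, at -0.44 without mitochondrial genes and -0.27 with total counts.

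Mbnl3 went the other way. It had 15, 45, 31, 28 and 34 counts in the 7-day KO libraries and 8, 3, 3 and 2 in their controls, that is 0.629 to 1.75 CPM against 0.119 to 0.482 CPM. The rise of 2.36 ± 0.44 (log2 ± SE; adjusted p = 0.00124, edgeR) was the single call among the 6 members tested at 7 days, beside 50.7% of 15167 genes called in either direction and 26.4% called higher, and the members called numbered 2 without any single 7-day control and 3 without KO library 3. At 14 days it had 19, 21, 8 and 25 counts against 6, 7 and 3. In CPM the groups overlapped, at 0.334 to 1.06 against 0.164 to 0.436. The difference of 1.28 ± 0.49 did not pass (adjusted p = 0.0572, edgeR), while without KO library 8 it did (1.55, adjusted p = 0.00745). Even so, Mbnl3 in the 7-day KO libraries was at 0.140 ± 0.0461 CPM per kilobase of merged exons, against 8.25 ± 2.46 for Mbnl1 (mean ± SD, n = 5).

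Celf1 was higher in some KO libraries. At 7 days it was at 156, 114, 101, 120 and 158 CPM against 98.3, 97.7, 112 and 107 CPM, with the highest values in libraries 1 and 5, which also had the lowest Esr1. The difference of 0.31 ± 0.15 (log2 ± SE; 95% interval -0.02 to 0.63) did not pass (adjusted p = 0.103, edgeR). Without libraries 1 and 5 it was 0.09 (adjusted p = 0.413), and with total counts it was 0.73 (adjusted p = 0.00133). At 14 days Celf1 was at 106, 115, 128 and 113 CPM against 98.3, 105 and 103 CPM, without overlap. That difference of 0.15 ± 0.09 (95% interval -0.05 to 0.35) did not pass on the TMM scale (adjusted p = 0.198, edgeR) and did with total counts without mitochondrial genes (0.35, adjusted p = 0.00941).

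Celf2 was at 110, 68.6, 102, 82.3 and 95.1 CPM in the 7-day KO libraries and at 80.8 to 84.4 CPM in controls, so that the KO libraries lay on both sides. Its difference was 0.14 ± 0.13 at 7 days (log2 ± SE; adjusted p = 0.393, edgeR). At 14 days it was at 66.9 to 86.3 CPM against 75.3 to 85.0 CPM, a difference of -0.11 ± 0.11 (adjusted p = 0.447, edgeR). The sign at 14 days turned with the scaling, to 0.09 and 0.26.

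Celf4 was at 0.932, 1.10, 1.88 and 0.973 CPM in the 14-day KO libraries and at 0.551, 0.436 and 0.327 CPM in controls, without overlap. The rise was 1.45 ± 0.38 (log2 ± SE; adjusted p = 0.0109, edgeR) and stayed called with each library left out in turn (adjusted p 0.012 to 0.048). At 7 days its groups overlapped, at 0.529 to 1.59 against 0.362 to 1.33 CPM, and the difference was 0.26 ± 0.41 (adjusted p = 0.624, edgeR). Celf5 fell below the filter on low counts in both fits, with 8 to 20 counts in the 7-day KO libraries against 2 to 4 in controls, and 2, 4, 16 and 12 counts at 14 days against 1 in each control. Without that filter it was called higher at both times (adjusted p = 0.0121 and 0.0204, edgeR with Benjamini-Hochberg adjustment), on controls at or near the limit of 3 counts. Of the 10 neuron and Schwann cell markers, 3 (Snap25, Th and Syt1) were at 0 in all day 60 controls, 2 (Snap25 and Syt1) in all 14-day KO libraries and 0 in all 7-day KO libraries. Their summed level was 19.6 to 62.4 CPM in the 7-day KO libraries against 11.1 to 14.9 CPM in controls, without overlap. At 14 days it was 13.0 to 22.2 against 18.6 to 20.3 CPM. The list as a whole did not follow the 7-day sum. Of 5 markers tested at 7 days, 1 rose and 1 fell (median log2 change 0.0018). Of 5 tested at 14 days, 1 rose and 3 fell (median -0.72). The part of these cells in Celf4 and Celf5 was not tested.

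At 14 days 3 of 6 tested members were called, Mbnl1 and Mbnl2 lower and Celf4 higher, beside 44.2% of 14976 genes called in either direction, 21.8% higher and 22.4% lower. Of all calls, 49.4% were higher at 14 days with TMM, 70.1% with total counts without mitochondrial genes and 81.9% with total counts, and the same 3 shares at 7 days were 52.0%, 70.7% and 83.5%. The change of the KO difference from 7 to 14 days was called for 0 of 7 members, beside 0% of 15951 genes by edgeR's quasi-likelihood test. At an unadjusted p under 0.05 there were 1662 genes, and DESeq2 called 147 and limma-voom 0. It was -0.36 for Mbnl1 (95% interval -0.89 to 0.16), -0.28 for Mbnl2 (-0.72 to 0.15) and 1.22 for Celf4 (-0.07 to 2.50), all log2. A difference between the times was therefore not shown for any member.

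The MBNL to CELF ratio was lower in libraries labelled KO than in controls of the same time. It was 1.82, 1.51, 2.22, 1.61 and 1.58 at 7 days against 2.29 to 2.45 in controls, and 1.78, 1.64, 1.41 and 1.66 at 14 days against 2.69, 2.38 and 2.16. No KO library reached a control of its own time. The log2 differences were -0.45 at 7 days (pooled SD 0.17) and -0.57 at 14 days (pooled SD 0.15), and the 7-day value was -0.43 without KO libraries 1 and 5. The groups did overlap at 7 days when counts were first divided by exon length, or when Celf2 was left out of the sum, with differences of -0.52 and -0.51. All KO ratios lay above the 1.16 to 1.19 of the day 7 controls. These sums count Mbnl1 reads, which in KO libraries need not come from intact transcript. With Mbnl1 left out of the KO sums, the ratio was 0.924 to 1.39 at 7 days and 0.826 to 1.06 at 14 days. With Mbnl1 left out of the day 7 controls too, theirs was 0.696 to 0.715.

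The shift did not rest on Mbnl1: without it in the MBNL sum the differences were -0.57 at 7 days and -0.68 at 14 days, without overlap. The pair with the least spread at 7 days was Mbnl2 to Celf2, at 2.44 to 2.77 in the 5 KO libraries of 7 days and 3.26 to 4.05 in their controls. At 14 days it was 2.26 to 2.67 against 3.10 to 3.84. Libraries 1 and 5 did not stand apart in this ratio. Mbnl2 to Celf1 varied more, at 1.72, 1.51, 2.80, 1.77 and 1.48 in the 7-day KO libraries, where library 3 lay within the control range.

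Marker genes moved strongly in the same libraries. At 7 days 9 of 10 cardiomyocyte markers fell, 7 of 10 fibroblast markers rose, and all 10 macrophage markers and all 10 mitosis genes rose. Summed cardiomyocyte markers were at 20926 to 47357 CPM against 74433 to 81963 CPM in controls, lowest in KO libraries 1 and 5 (27851 and 20926 CPM). Summed fibroblast markers were at 4509 to 11787 CPM against 1334 to 1617 CPM, and summed macrophage markers at 1132 to 1612 CPM against 417 to 494 CPM. At 14 days 9 of 10 cardiomyocyte markers fell, and 9 of 10 fibroblast and 9 of 10 macrophage markers rose. Their part in the members' levels and ratios was not tested.

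Transcripts whose exons are known to be spliced under MBNL or CELF control were followed as totals per gene, since exon usage was not available. Of 25 such genes, 5 rose and 11 fell in KO libraries at 7 days (median log2 change -0.43), and 4 rose and 11 fell at 14 days (median -0.33), against all-gene medians of 0.03 and 0.01. Of all genes tested, 26.4% were called higher and 24.3% lower at 7 days, and 21.8% and 22.4% at 14 days. Several are genes of the contractile and calcium-handling machinery of muscle, and Ryr2, Tnnt2 and Ttn are also among the cardiomyocyte markers. At 7 days Tnnt3, fast skeletal troponin T, rose by 7.07 ± 0.78 (log2 ± SE; adjusted p = 5.37e-05, edgeR) and Ryr1, the skeletal ryanodine receptor, by 3.92 ± 1.11 (adjusted p = 0.0129, edgeR). Cacna1s, the skeletal L-type calcium channel subunit, fell by 4.06 ± 0.23 (adjusted p = 2.26e-06, edgeR) and Ryr2, the cardiac ryanodine receptor, by 1.33 ± 0.32 (adjusted p = 0.0053, edgeR). At 14 days Pdlim3, a Z-disc protein, rose by 2.45 and Clcn1, the muscle chloride channel, fell by 3.55 (adjusted p 1.53e-06 and 1.27e-06, edgeR).

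In Tg libraries 2 of the 24 tested genes of that list rose and 11 fell, with a median of -0.19 (all genes -0.0016). Of all genes tested there, 14.9% were called higher and 15.8% lower. Mapt, encoding tau, rose by 1.04 ± 0.09 (adjusted p = 4.75e-06, edgeR) and Dmd, encoding dystrophin, by 0.33. Mef2a, a muscle transcription factor, fell by 0.33 ± 0.05 (adjusted p = 0.000327, edgeR). With age, 17 rose and 6 fell from day 7 to day 60 (median 0.59, all genes -0.05), among them Cacna1s (3.77) higher and Fn1, fibronectin (-2.99), and Bin1 (-1.17) lower. Over that step 33.3% of all genes tested were called higher and 36.0% lower. From day 1 to day 7, 4 genes of the list rose and 2 fell, with Mapt at 4.13. Of all genes tested over that week, 12.3% were called higher and 11.2% lower.

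Transcripts linked to CELF1 or MBNL1 through stability or translation formed a list of 18, of which 16 or 17 were tested. In KO libraries 5 rose and 2 fell at 7 days and 5 rose and 1 fell at 14 days, of 16 tested. Those counts are near or below the 50.7% and 44.2% of all genes called, so they set nothing apart in this list. Tnc, the matrix protein tenascin C, was at 6.79 and 3.53 (log2 change) and Fos, an immediate early gene, at 2.07 and 1.38. In Tg libraries 7 rose and 1 fell of 17 tested, beside 14.9% of all genes called higher and 15.8% lower. Cdkn1a, the cell cycle inhibitor p21, rose by 1.48 ± 0.07 (adjusted p = 3.66e-08, edgeR). Cebpb rose by 1.38 ± 0.13 (adjusted p = 7.36e-06, edgeR), and Nfatc2 fell by 0.59. Between day 1 and day 7, 0 rose and 7 fell of 17, with Myc at -1.90, beside 12.3% of all genes called higher and 11.2% lower. Between day 7 and day 60, 8 rose and 3 fell of 17, with Cebpb at 3.76 and Gja1, connexin 43, at -1.10. Over that step 33.3% of all genes were called higher and 36.0% lower.

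Regulators of these proteins formed a list of 13. Protein kinase C is known to phosphorylate and stabilise CELF1. Of its isoforms, Prkcb (1.26 ± 0.23, adjusted p = 0.00123) and Prkcd (1.16 ± 0.08, adjusted p = 6.04e-06) rose and Prkce (-0.70 ± 0.13, adjusted p = 0.00129, all edgeR) fell in KO libraries at 7 days. Prkcd (0.70) and Prkce (-0.53) were called the same way at 14 days. Dmpk, whose human counterpart carries the CUG repeat of myotonic dystrophy, rose by 0.57 from day 1 to day 7 and by 1.28 from day 7 to day 60, and fell by 0.35 in KO libraries at 7 days. Counts for the whole list were 3 higher and 2 lower (KO, 7 days), 5 and 1 (KO, 14 days), 4 and 2 (Tg), 1 and 2 (day 7 against day 1), and 4 and 7 (day 60 against day 7). At both KO times these are near or below the shares of all genes called, 50.7% and 44.2%. In the other comparisons those shares were 30.7% (Tg), 23.5% (day 7 against day 1) and 69.3% (day 60 against day 7).

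Likeness of pattern was measured as Pearson's r of log2 CPM over the libraries, as a description only, since libraries of a group share age and treatment. Over 27 libraries Mbnl2 was like Gfod1 (0.959) and Itpripl1 (0.954), and Celf1 most like Rad54l2 (0.944), Bcar1 (0.942) and Nup188 (0.938), among 10554 candidate genes. Over the 23 libraries without the transgene Mbnl1 was most like Tgoln1 (0.940), Srpr (0.928) and Srgn (0.922). Celf2, over all 27 libraries, was most like Srpr (0.893), Pvr (0.877) and Dnajc3 (0.874). Among members, Mbnl1 and Celf2 went together (0.909, 23 libraries), as did Mbnl1 and Mbnl2 (0.879, 23 libraries), whereas Celf1 ran against Mbnl1 (-0.667, 23 libraries), Mbnl2 (-0.679) and Celf2 (-0.527, both over 27). All r values are on the TMM scale and may depend on it. With total counts the log2 step from day 7 to day 60 was 0.02 for Mbnl1 and -0.22 for Celf2.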

How the data were processed

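The authors deposited raw counts, integers for every gene in each library, made from ventricle RNA. The submitters' processing notes name STAR, featureCounts, DESeq2, Salmon and GRCm38 (mm10); roles, versions, annotation release, filters and strandedness are not given in the sources used here. Of the 55487 gene identifiers, 55227 were named from GENCODE M21. All columns matched a sample, and 0 were left unused.

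Each comparison was fitted over all genes with edgeR 4.0.16 in R 4.3.3 (filterByExpr, TMM, glmQLFit and glmQLFTest, Benjamini-Hochberg adjustment, called at an adjusted p under 0.05). The age steps used the 14 control libraries, and the change of the KO difference used all 16 day 60 libraries. On simulated data with 200 genes changed 2-fold, this recovered 99.5% in the design of KO at 7 days (15191 genes tested). It recovered 98.5% in that at 14 days and 98.5% in that of Tg. The changed genes were drawn only from those above a limit on counts, and every gene was given the same small spread. The simulation therefore does not cover the low members or the wide spread among the 7-day KO libraries. Nor does it show that an uncalled member was unchanged. DESeq2 1.42.0, limma-voom (limma 3.58.1), other scalings, no filter, a single fit of all 27 libraries, a replicate block and leaving out each library were tried as alternatives.

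The members and gene lists were chosen with earlier results of these data known. Named list genes are, per list and comparison, the called genes with the 2 largest rises and the 2 largest falls at a mean of at least 5 CPM. Genes like a member are the 3 with the highest r among protein-coding genes at that mean, on log2 CPM with a pseudocount of 0.5. Some genes that these rules name are not reported here. No 2 libraries of a group agreed within sampling noise (chi-square per degree of freedom 6.34 to 147 over 40 pairs).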

Additional observations from a re-analysis of the deposited data

Results flagged for a closer look

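Of 70 groups of 4 or 5 libraries checked for a value standing far from the rest, 5 had one. Chance flags about 1 in 20 groups of normally spread values, a rate that does not hold for counts near 0. There a lone count beside libraries at 0, as for Celf6, is always flagged. Groups with 0 in every library, which cannot be flagged, were among the 70. In the 7-day KO libraries, library 3 had a Mbnl2 to Celf1 ratio of 2.80, against 1.48 to 1.77 in the other 4, and a Celf2 to Celf1 ratio of 1.01, against 0.601 to 0.704. The 2 share the same Celf1 value, which was the lowest of that group at 101 CPM. Mbnl3 was at 0.482 CPM in library 1 of the day 60 controls labelled 7 days, from 8 counts, against 0.119 to 0.166 CPM in the other 3. Celf6 was at 0.0354 CPM in Tg library 4 and at 0.0321 CPM in day 1 control library 2, each from 1 count where the other 3 libraries had 0.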

How the results depend on the processing

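Levels near 3 counts (Mbnl3 and Celf5 in day 60 controls, Celf6 in all libraries) and the unequal mitochondrial share set the limits of these results. Members called in KO at 7 days went from 1 to 4 in a single fit of all 27 libraries, 3 under both total-count scalings, 2 without the low-count filter and 2 without KO libraries 1 and 5 (a setting added after seeing the data), and ran from 1 to 3 with each library left out. A setting that also left out KO library 3 was tried and dropped, since it left out the 3 libraries with the highest Mbnl1; in it Mbnl1 was called lower. At 14 days 3 became 5 without the filter and 5 with total counts. In Tg 5 became 1 in the fit of all 27 libraries, with 973 genes called, and 3 to 5 with each library left out. For day 7 against day 1, 2 became 1 without the filter, and 1 to 2 with each library left out, where all genes called ran from 2508 to 4492. For the change of the KO difference, genes called were 147 by DESeq2, 13 without the filter, 2 with total counts and 0 to 21 with each library left out.

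Signs turned as follows, all log2. With total counts, Celf2 was 0.26 (KO, 14 days) and -0.22 (day 60 against day 7), Mbnl1 was 0.034 (KO, 14 days), Mbnl2 was 0.083 and Celf3, a family gene outside the 8, was 0.16 (KO, 7 days). Without mitochondrial genes in the total, Celf2 was 0.088 (KO, 14 days). Under limma-voom Mbnl1 was -0.0077 and Celf3 0.35 (KO, 7 days), and Celf3 -0.29 for the change of the KO difference. Without KO libraries 1 and 5 Mbnl1 was -0.21. With each library left out, Mbnl1 ran from -0.11 to 0.16 and Celf3 from -0.64 to 0.00014 (KO, 7 days), and Mbnl3 from -0.24 to 0.25 (day 7 against day 1). Of these, Mbnl1 (KO, 14 days) was called as reported but not with total counts, Celf2 (KO, 14 days) with total counts but not as reported, and Celf2 (day 60 against day 7) in both. The causes were not tested.

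The log2 difference of the MBNL to CELF ratio kept its sign throughout, save in Tg without Mbnl1 (-0.090). In Tg it was 3.57 per kilobase and 4.04 without Celf2. From day 7 to day 60 it was 1.24 per kilobase, 1.36 without Celf2 and 1.13 without Mbnl1, and from day 1 to day 7 it was 0.25 without Mbnl1. With each library left out it ran from -0.54 to -0.40 (KO, 7 days) and from -0.64 to -0.49 (KO, 14 days).

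Replicate numbers did not pair the samples: over 15 pairs of libraries with the same number the deviations from group means correlated at -0.52 to 0.28. With a replicate block, members called for day 7 against day 1 were 1, Celf1 being lost, Mbnl1 in KO at 14 days was lost (-0.19, adjusted p = 0.183, edgeR), Mbnl3 was lost in Tg (-0.88, adjusted p = 0.0538) and gained in KO at 14 days (1.60, adjusted p = 0.047), while Mbnl1 was -0.041 (KO, 7 days), Celf2 was 0.078 (KO, 14 days), and Celf5 was -0.48 and Celf3 -0.82 for the change of the KO difference.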
